A study of Mus musculus with 12 samples.

Results

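Transcripts of 6 genes of Schwann cells and myelin (Pmp22, Mbp, Mag, Cnp, S100b and Sox10) were followed across skeletal muscle samples from mice with and without dysferlin, a fibre membrane protein that acts in sarcolemma repair. Members were every probe set, a group of short array probes read as 1 value, whose platform annotation gave 1 of these symbols: 6 of the 8251 genes named and 10 of 12422 probe sets. The 12 samples, 1 array each, came from 3-week old mice in 4 groups of 3: Dysf_null_QF and Dysf_null_TA (line C57BL/10-SJL.Dysf, labelled Dysf -/-), and Control_QF and Control_TA (C57BL/10, labelled Dysf +/+). QF and TA are the labels' muscle names, from knowledge of the field quadriceps femoris (proximal) and tibialis anterior (distal). The Dysf -/- mice carry the SJL form of dysferlin in every cell, nerve and immune cells included. The labels do not state that arrays of 1 group are from different animals, so the p-values rest on array-to-array spread that could include technical repeats.

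A muscle sample contains branches of motor and sensory nerve as well as fibres. Each myelinated axon of such a branch is wrapped by Schwann cells, whose membrane is compacted into myelin by proteins such as PMP22 and MBP, and the transcription factor SOX10 keeps the Schwann cell identity and switches on myelin genes. If a dissected piece holds more nerve, transcripts of these cells would be expected to be higher together on that array. In bulk tissue, fewer cells of a type and less RNA per cell cannot be told apart.

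Values below are levels on the log2 scale after quantile normalization, with a floor at 4.53 that is the 25th percentile of all values. A level may be compared between arrays. Between probe sets it ranks signal only and does not compare amounts of transcript. Fibre genes gave strong signal on all 12 arrays: skeletal actin Acta1 lay between 14.05 and 14.50 and creatine kinase Ckm between 12.07 and 13.45. These values do not check the QF and TA labels. Dysf itself was not among the named probe sets, and the genotype labels were not checked by its transcript. Both QF arrays numbered 2 stood apart. As deposited, their medians were 106.1 and 107.1 in intensity, where the remaining 10 arrays had 72.8 to 84.3. Their median correlations with the other arrays were 0.866 and 0.876, against 0.926 to 0.959. Correlations between member pairs and the count of member probe sets called are given with and without them. Other values are from all 12 arrays unless stated, and can depend on these arrays.

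Of the 10 probe sets, 7 were above the floor on at least 3 arrays and were tested, and 5 of the 6 genes had such a probe set. Cnp, the cyclic nucleotide phosphodiesterase of uncompacted myelin, had 1 probe set, which lay at the floor on all 12 arrays with deposited intensities of 5.2 to 17.6. The second probe sets of Pmp22 (161442_at, 1.7 to 10.5) and of Mag (102405_at, 6.0 to 23.8) were at the floor on all 12 as well. Cnp was therefore not measured above the floor, which is no statement that the transcript is absent. With the floor at the 10th percentile Cnp was tested, and its genotype difference was 0.10 in QF and -0.15 in TA, called in neither. Pmp22 (102395_at) and the Mbp probe set 96311_at ranked at the 92.3 and 83.3 percentile of mean level among all probe sets, Sox10 (102856_at) at 68.3, Mbp (96310_at) at 52.9, Mag (161846_r_at) at 46.8, Sox10 (100283_at) at 29.6 and S100b at 28.2.

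**Figure D1:**
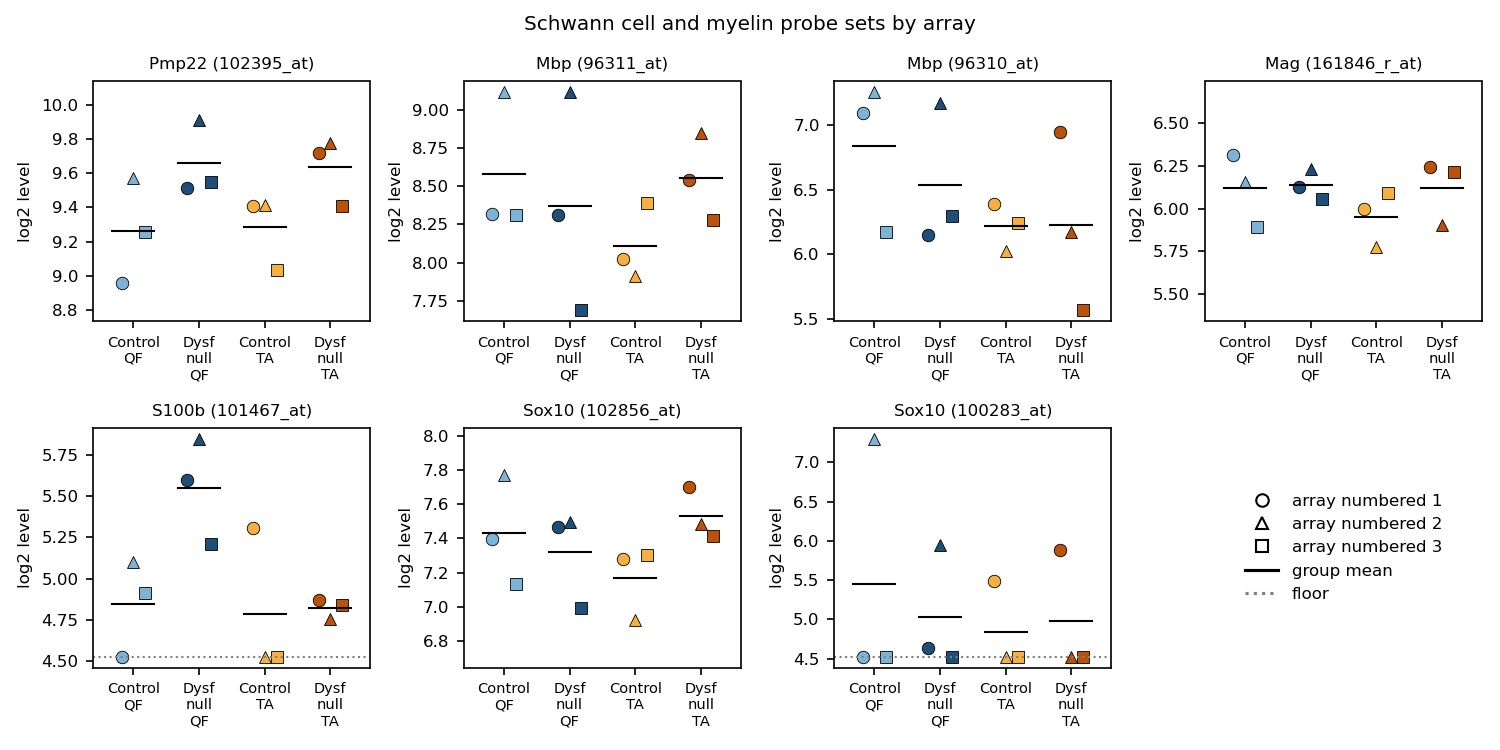
Log2 level (vertical axes, scaled separately) of the 7 tested probe sets on each of 12 arrays by group; circles, triangles and squares are arrays numbered 1, 2 and 3, bars are group means, and the dotted line is the floor of 4.53. The QF triangles are the highest of their group in every panel except Mag in Control_QF, and only S100b in QF and Sox10 (102856_at) in TA separate the genotypes without overlap.

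Pmp22 encodes a small membrane protein of compact peripheral myelin, known for the inherited neuropathies that follow a change in its gene dose, and it is also expressed by fibroblasts and other cells outside nerve. Its levels were 9.51, 9.91 and 9.55 in Dysf_null_QF and 8.96, 9.57 and 9.25 in Control_QF. In TA they were 9.72, 9.78 and 9.41 in Dysf_null mice and 9.41, 9.41 and 9.03 in controls. In both muscles the Dysf_null arrays lay higher on average, with a narrow overlap in each: the lowest Dysf_null_QF array was below the highest Control_QF array, and the same held in TA.

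The Pmp22 difference, Dysf_null minus Control, was 0.40 ± 0.19 (SE, 3 arrays against 3) in QF and 0.35 ± 0.19 in TA. Neither passed (limma, Benjamini-Hochberg adjusted p = 0.771 and 1.0). Averaged over the muscles it was 0.37 ± 0.13, or 1.30-fold, with a 95% confidence interval of 0.09 to 0.66 and a limma adjusted p of 0.359 (0.0149 unadjusted). With a replicate block (same-numbered arrays paired within a muscle), the average difference had an SE of 0.06 and passed, with a limma adjusted p of 0.00916, while QF (0.0501) and TA (0.109) did not. Under that block 4.59% of all probe sets passed for the average, 2.64% in QF and 1.54% in TA. The labels do not say what same-numbered arrays share. Their deviations from group means had r of 0.114 to 0.711 over the 6 pairs, and differently numbered arrays were not compared. Over the alternatives run, the average difference was between 0.30 and 0.46 and its limma adjusted p between 0.00916 and 0.952. Between muscles Pmp22 differed little, by 0.02 ± 0.19 (TA minus QF) in Control mice and -0.02 ± 0.19 in Dysf_null mice, with intervals of -0.39 to 0.43 and -0.43 to 0.39.

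Of 13 fibroblast and tendon markers measured of 15, 2 rose with genotype in QF (Fmod and Kera) and 1 in TA (Fmod). All 13 had a positive difference in QF and in TA, with medians of 0.75 and 0.38, against medians of -0.01 and 0.00 over all 10331 probe sets tested. Averaged over the muscles, 3 of 13 rose: Fmod, a small proteoglycan of tendon (1.51 ± 0.18, limma adjusted p = 0.00127), Kera, a proteoglycan of the same family (1.12 ± 0.19, 0.0118), and Col1a1, a chain of type I collagen (0.92 ± 0.19, 0.0413). The mean level over the 13 genes ran from 10.28 to 10.47 in Dysf_null_QF against 9.40 to 9.79 in Control_QF, and from 10.36 to 10.54 in Dysf_null_TA against 9.90 to 9.95 in Control_TA. These counts and levels took each marker at the probe set with the highest mean. Of all probe sets, 0.455% passed in QF, 0.407% in TA and 1.09% for the average, in either direction. Another probe set of Col3a1, not the one taken, rose in QF (1.92 ± 0.20, limma adjusted p = 0.0019). It also rose for the average (1.29 ± 0.14, limma adjusted p = 0.000717). Within groups the median r of Pmp22 with the 13 markers was 0.02 (7 of 13 positive), against -0.06 over all probe sets. Without both QF arrays numbered 2 the median with the 13 was 0.16. Of 10 macrophage markers, 8 had a positive difference in QF (median 0.42) and 9 in TA (0.25). Among these, 0 passed in QF and 1 fell in TA (the lysosomal protein gene Cd68, -1.27 ± 0.19, limma adjusted p = 0.0104). For the average 1 rose (the lysozyme gene Lyz2, 0.70 ± 0.13, limma adjusted p = 0.0219). Another probe set of C1qb, not the one taken, also rose for the average (0.74 ± 0.12, limma adjusted p = 0.00773). The mean level over the 10 ran from 7.66 to 7.98 in Dysf_null_QF against 7.31 to 7.49 in Control_QF, and from 7.75 to 7.91 in Dysf_null_TA against 7.63 to 7.70 in Control_TA. How often the mean over a list of such a size does not overlap between groups was not computed, for these or the fibroblast and tendon markers. The part of either cell type in the Pmp22 difference was not tested.

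Mbp encodes myelin basic protein, which holds the inner faces of the myelin membrane together, and the same gene gives related transcripts in cells that make no myelin. On the brighter probe set, 96311_at, the levels were 8.31, 9.11 and 7.69 in Dysf_null_QF and 8.32, 9.11 and 8.31 in Control_QF. They were 8.54, 8.85 and 8.28 in Dysf_null_TA and 8.03, 7.91 and 8.39 in Control_TA. The groups overlapped in both muscles. In QF the arrays numbered 2 were the highest of both genotypes, and the spread between Dysf_null_QF arrays (SD 0.71) was the widest of the 4 groups.

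The Mbp difference was -0.21 ± 0.33 in QF and 0.45 ± 0.33 in TA, with intervals of -0.92 to 0.50 and -0.27 to 1.16 (limma adjusted p = 1.0 in both). The second Mbp probe set, 96310_at, gave -0.30 ± 0.43 and 0.01 ± 0.43. On 96311_at the order of group means was Control_QF (8.58), Dysf_null_TA (8.55), Dysf_null_QF (8.37) and Control_TA (8.11), and no neighbours in that order differed beyond the spread of their arrays. TA minus QF was -0.47 ± 0.33 in Control mice and 0.18 ± 0.33 in Dysf_null mice. The interaction, which subtracts the genotype difference of QF from that of TA, was 0.65 ± 0.47 (adjusted p = 1.0).

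Sox10 levels on 102856_at were 7.47, 7.5 and 7.0 in Dysf_null_QF, 7.40, 7.77 and 7.13 in Control_QF, 7.70, 7.48 and 7.41 in Dysf_null_TA and 7.28, 6.92 and 7.31 in Control_TA. All 3 Dysf_null_TA arrays were above all 3 Control_TA arrays, which 6.92% of all probe sets also showed in that direction. The difference was 0.36 ± 0.25 in TA (interval -0.18 to 0.90, limma adjusted p = 1.0) and -0.11 ± 0.25 in QF (-0.65 to 0.43). The interaction was 0.48 ± 0.35 (adjusted p = 1.0), so a difference between the muscles was not shown. On the dimmer probe set 100283_at, 7 of 12 arrays were at the floor, and the highest level, 7.30, was on Control_QF 2, followed by 5.94 on Dysf_null_QF 2.

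S100b encodes a calcium-binding protein that is used as a Schwann cell marker and is also made by fat cells and cartilage. Its levels were near the floor: 5.60, 5.85 and 5.21 in Dysf_null_QF, 4.53, 5.10 and 4.91 in Control_QF, 4.87, 4.76 and 4.84 in Dysf_null_TA and 5.31, 4.53 and 4.53 in Control_TA. The 3 Dysf_null_QF arrays were above the 3 Control_QF arrays, against 4.08% of all probe sets that separated in that direction. They were also above the 3 Dysf_null_TA arrays (4.51% of probe sets were lower in TA without overlap). A total of 3 of 12 arrays were at the floor, so these differences are bounded by it. No member separated in the opposite direction: 0 of 7 were lower without overlap in Dysf_null_QF (3.45% of all probe sets) or Dysf_null_TA (6.87%), and 0 were higher in TA than QF of Dysf_null mice (5.71%). Between muscles in Control mice 0 of 7 separated either way (8.16% higher and 5.6% lower in TA).

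In QF the S100b difference was 0.71 ± 0.28 (interval 0.09 to 1.32, limma adjusted p = 0.612, 0.0275 unadjusted). TA minus QF in Dysf_null mice was -0.73 ± 0.28 (adjusted p = 0.779, 0.0236 unadjusted). The differences in TA (0.04 ± 0.28) and between muscles in Control mice (-0.06 ± 0.28) were smaller than their SE, and the interaction of -0.67 ± 0.40 did not pass (adjusted p = 1.0). Of 11 fat cell markers, 5 had a positive genotype difference in QF (median -0.01) and 1 rose, Ucp1, the uncoupling protein of brown fat (1.63 ± 0.27, limma adjusted p = 0.0181). Their mean level ran from 8.5 to 8.6 in Dysf_null_QF and from 8.47 to 8.58 in Control_QF. Between muscles, 3 of 11 fell in TA of Dysf_null mice (median -0.88, 0 positive), where S100b had its difference of -0.73, and 4 of 11 fell in Control mice (median -1.18, 0 positive), where that of S100b was -0.06. Of all probe sets, 0.455% passed by genotype in QF, 0.3% between muscles in Dysf_null mice and 0.736% in Control mice. The part of fat cells in the S100b differences was not tested.

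Mag encodes an adhesion protein of the myelin layer next to the axon. The probe set measured, 161846_r_at, is of a class for which the array's makers relaxed the rules of probe choice, so its specificity is uncertain, and the probe set without that mark was at the floor. Levels were 6.13, 6.23 and 6.05 in Dysf_null_QF, 6.31, 6.15 and 5.90 in Control_QF, 6.24, 5.90 and 6.22 in Dysf_null_TA and 6.0, 5.78 and 6.09 in Control_TA, with every pair of groups overlapping. The genotype difference was 0.02 ± 0.28 in QF and 0.17 ± 0.28 in TA (limma adjusted p = 1.0 in both). Group means ranged from 5.95 (Control_TA) to 6.14 (Dysf_null_QF).

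Across the 6 comparisons, 0 of 7 member probe sets passed limma at an adjusted p of 0.05, where 0.455% of all probe sets passed for genotype in QF, 0.407% in TA and 1.09% for the average, 0.736% between muscles in Control and 0.300% in Dysf_null mice, and 0.0678% for the interaction. At an unadjusted p of 0.05, 1 of 7 passed in QF (S100b), for the average (Pmp22) and between muscles in Dysf_null mice (S100b), against 6.77%, 7.63% and 5.72% of all probe sets. It was 0 of 7 in TA (4.82% of all), between muscles in Control mice (9.86%) and for the interaction (3.05%). With the replicate block, 1 of 7 (Pmp22) passed for the average, against 4.59% of all probe sets, and 0 passed under the other alternatives. The 7 differences were all positive in TA (median 0.17; 6 of 7 with the deposited scaling and 5 of 7 with median centring) and 3 were positive in QF (median -0.11), against 48.8% and 48.5% of all probe sets. Intervals were wide, and the median SE over all probe sets was 0.323.

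**Figure D2:**
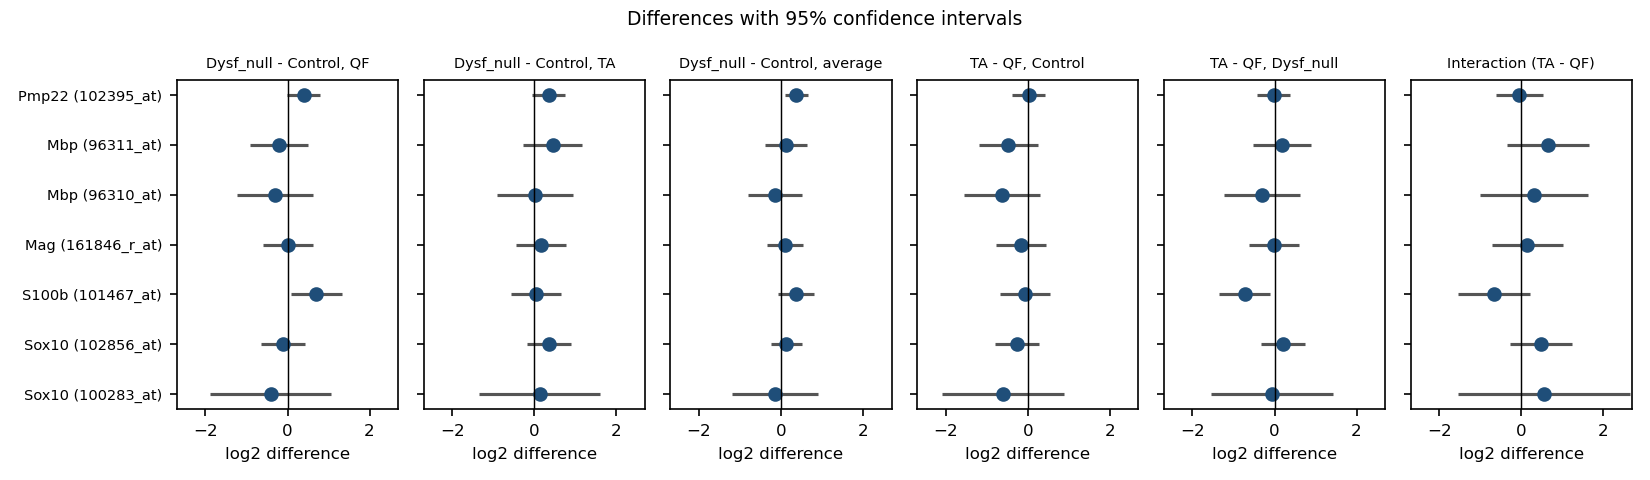
Differences between groups (log2, horizontal axes) with 95% confidence intervals for the 7 tested probe sets in the 6 comparisons; points are limma estimates from 12 arrays. Intervals that exclude 0 are those of Pmp22 for the average genotype difference (0.09 to 0.66) and of S100b in QF and between muscles in Dysf_null mice, and none passed after adjustment.

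Whether the genes move together was then examined on deviations from the group mean, so that group differences do not enter. For each of 5 genes the probe set with the highest mean was used, which gave 10 pairs, and Cnp was left out. On Control_QF 2 and on Dysf_null_QF 2, 5 of 5 genes lay above their group mean, and on Dysf_null_QF 3, 0 of 5 did. The mean deviation over the 5 was 0.29, 0.31 and -0.31 on these 3 arrays, and between -0.15 and 0.14 on the other 9. In TA the genes split: on Dysf_null_TA 2 Pmp22 and Mbp deviated by 0.14 and 0.29, and Mag by -0.22.

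**Figure D3:**
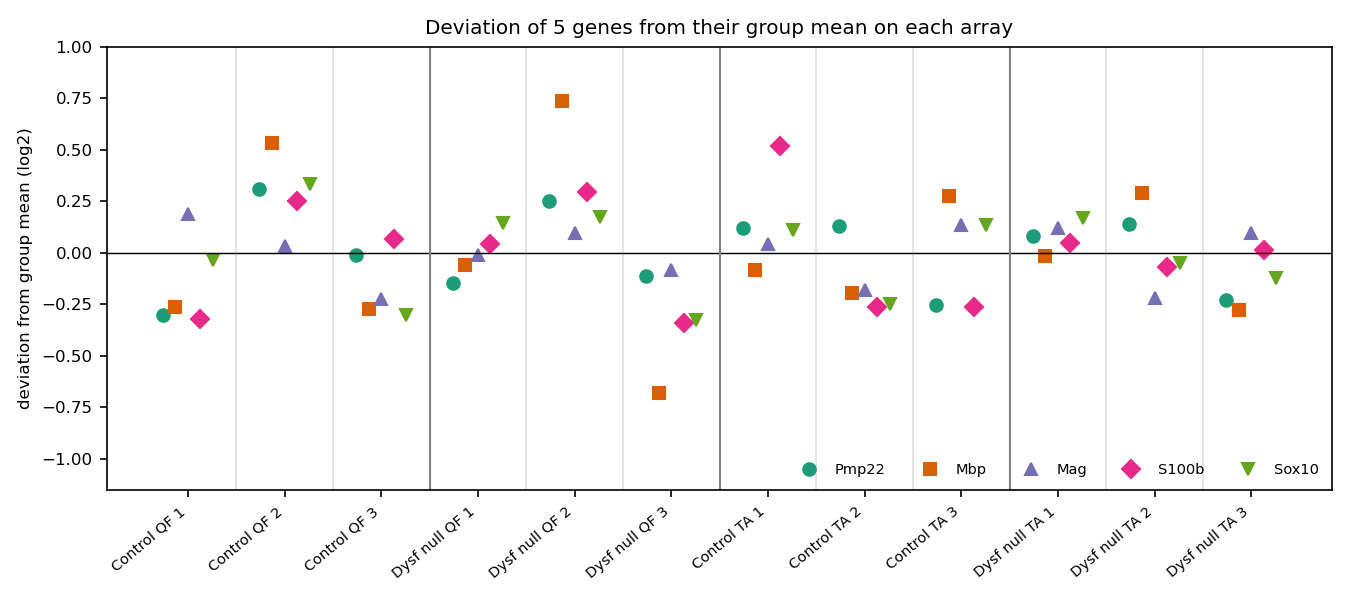
Deviation of 5 genes from their group mean (log2, vertical axis) on each of 12 arrays (horizontal axis), 1 probe set per gene, with group borders as dark lines. The 5 points lie above 0 on Control QF 2 and Dysf null QF 2 and below 0 on Dysf null QF 3, and they fall on both sides of 0 on the other 9 arrays.

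Of the 10 pairs, 9 had a positive r over 12 arrays, with a median of 0.512 and a range of -0.32 to 0.76. The exact permutation below moves arrays freely within a group and so leaves out any pairing of same-numbered arrays. With the replicate block, which leaves 4 residual degrees of freedom, the median was 0.127 and 6 of 10 were positive: Mbp and Sox10 had r = 0.70 and Pmp22 and S100b 0.77, but Mag had -0.38 with Sox10, -0.86 with S100b and -0.99 with Pmp22. No p was computed for these. Without the block, the pair most alike was Mbp and Sox10 (Pearson r = 0.76, two-sided exact permutation p = 0.0378 within groups, 0.284 after Benjamini-Hochberg adjustment over 10 pairs; Spearman rho = 0.83, exact permutation p = 0.0177, adjusted 0.177). Its r was 0.70 without the 2 arrays farthest from the median of Mbp, which were Dysf_null_QF 2 and Dysf_null_QF 3. Pmp22 and S100b followed (r = 0.61, exact permutation p = 0.0864, rho = 0.57, p = 0.111; r = 0.43 without the 2 farthest arrays), then Mag and Sox10 (r = 0.60, exact permutation p = 0.0779, rho = 0.52, p = 0.144; 0.52). Pmp22 and Mbp, both of compact myelin, gave r = 0.58 (exact permutation p = 0.113, rho = 0.59, p = 0.10) and 0.77 without Control_QF 1 and Control_TA 3, the farthest for Pmp22. Pmp22 and Mag gave r = -0.32 (exact permutation p = 0.424, rho = -0.41, p = 0.315), and 0.03 without Control_QF 1 and Control_TA 3. After adjustment, 0 of 10 pairs passed.

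Without both QF arrays numbered 2 the median r over the pairs was 0.03, 6 of 10 were positive, and 9 of 10 were lower than over 12 arrays. Pmp22 and Mbp went from 0.58 to -0.05 and Mbp and S100b from 0.48 to 0.05. Mbp and Sox10 and also Mag and Sox10 had r = 0.65, and Pmp22 and Mag went to -0.73. Within QF the median r was 0.627, with 8 of 10 pairs positive, and within TA it was 0.116, with 5 of 10 positive. The QF value includes both arrays numbered 2 and was not computed without them, so a difference between the muscles was not shown. The TA values of the 3 pairs highest over 12 arrays were 0.47 for Mbp and Sox10, 0.32 for Pmp22 and S100b and 0.67 for Mag and Sox10. With arrays centred on their medians in place of quantile normalization, the median r was 0.166, and Pmp22 and Mag alone passed, with r = -0.91 (exact permutation, adjusted p = 0.0154, and 0.380 to 0.972 under the alternatives other than that one), that is, moving oppositely. With the scaling as deposited that pair had r = -0.10. Sox10 then had 0.82 with Mbp, 0.88 with Mag, 0.86 with S100b and 0.15 with Pmp22. No pair passed there (exact permutation, lowest adjusted p = 0.0694).

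**Figure D4:**
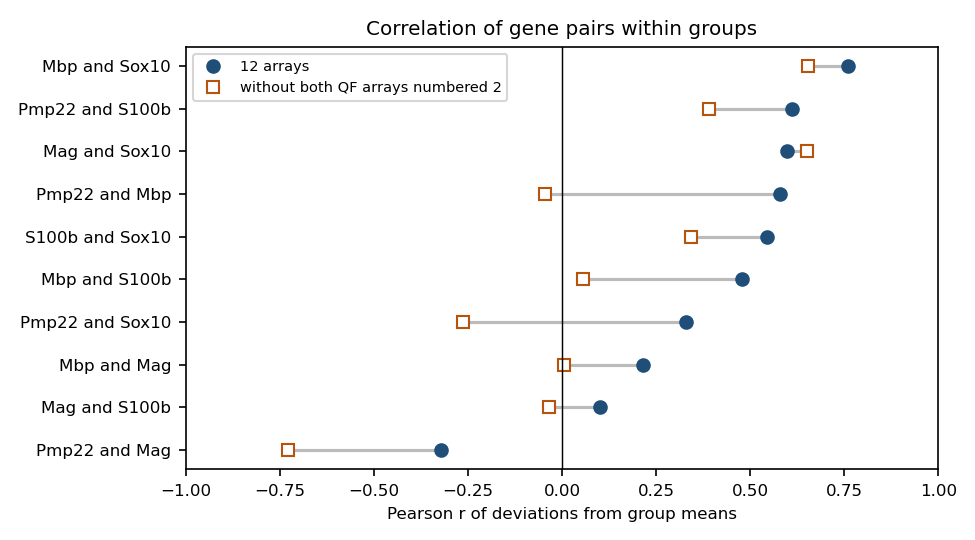
Pearson r of deviations from group means (horizontal axis) for 10 pairs of 5 genes (vertical axis), over 12 arrays (filled circles) and without both QF arrays numbered 2 (open squares). The squares lie left of the circles for 9 of 10 pairs, and the median falls from 0.512 to 0.03.

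These correlations were set against those with all other 10330 tested probe sets, which share the same arrays and normalization. For Sox10 the median r with them was -0.05 and the 5th and 95th percentiles were -0.79 and 0.77, so Mbp, at r = 0.76, ranked 547 of 10330. From the side of Mbp, Sox10 ranked 610. The other members ranked between 594 (Pmp22 as seen from S100b) and 7463 (Pmp22 as seen from Mag). Arrays Dysf_null_QF 2 and Control_QF 2 were each the highest of their group for 33.0% and 32.6% of all probe sets, and both were for 22.2%, against 6 of 7 member probe sets. The 2 probe sets of Mbp correlated at r = 0.59 (0.18 without both QF arrays numbered 2) and those of Sox10 at 0.76 (0.50). Between genes the median r was 0.512 (0.03) and the highest over 12 arrays was 0.76. The dimmer Sox10 probe set was at the floor on 7 of 12 arrays, which limits its use as a second reading.

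By the same measure, over 12 arrays, the probe sets most like each gene were not of the Schwann cell lists. They were Rad17, Atp5a1, Idh1, Krt13 and Sar1b for Pmp22 (r of 0.93 to 0.96), and Klrb1a, Palm, Mms19, Chrna6 and Itga3 for Mbp (0.93 to 0.95). For Mag they were Gnas, Ints14, Thumpd1, Traip and Tubgcp4 (0.92 to 0.95), for S100b Cd79b, Scaf8, Dgcr2, Madcam1 and Sap30 (0.88 to 0.94), and for Sox10 Nelfa, Paqr7, Wt1, Man2b1 and Jmjd6 (0.95 to 0.98). With 10330 candidates and 12 arrays, such values are the upper end of a wide distribution.

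A list of 34 further Schwann cell and myelin genes had 20 on the array and 17 measured. None of the 17 passed limma in any of the 6 comparisons or under any alternative (median genotype difference -0.03 in QF and 0.19 in TA, against -0.01 and 0.00 over all probe sets; 8 and 13 of 17 positive). The mean level over the 17 ran from 6.53 to 6.65 in Dysf_null_TA and from 6.23 to 6.41 in Control_TA, and the groups overlapped in QF (6.23 to 6.54 and 6.37 to 6.42). The share of lists of this size whose means do not overlap in TA was not computed. The 3 with the highest mean level were Cd9, a tetraspanin of many cells (genotype difference 0.17 ± 0.21 in QF and 0.27 ± 0.21 in TA), Ndrg1, a stress-induced protein required for peripheral myelin (-0.28 ± 0.30 and 0.25 ± 0.30), and Sirt2, a deacetylase abundant in myelinating cells (-0.68 ± 0.31 and -0.32 ± 0.31).

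The median within-group r across arrays with these 17 genes was -0.05 for Pmp22, 0.04 for Mbp, 0.06 for Mag, -0.13 for S100b and 0.05 for Sox10, where the medians over all probe sets were -0.06, -0.09, -0.01, -0.05 and -0.05 in that order. Without both QF arrays numbered 2 the medians with the 17 were -0.12, 0.12, 0.13, -0.23 and -0.04 in the same order. Chosen after its values were seen, Egr2, the transcription factor that drives myelination together with SOX10, had r = 0.82 with Sox10 and 0.79 with Mag (0.70 and 0.89 without both QF arrays numbered 2), 0.62 with Mbp (0.16), and 0.23 with both Pmp22 and S100b (-0.52 and -0.20). Egr2 had the highest r of the 17 genes with Sox10 and with Mag, and 9 of 17 were positive with each. Ndrg1 and Sirt2 had r of -0.64 and -0.62 with Sox10 (-0.38 and -0.52), and the lowest was Sema3b at -0.73 (-0.89). The 11 measured axon and nerve ending genes had a median r of 0.26 with Mag (9 of 11 positive; 0.36 without both QF arrays numbered 2) and 0.13 with Sox10 (8 of 11; 0.41). With Mbp it was -0.04 (5 of 11; 0.19), with Pmp22 -0.13 (3 of 11; -0.20) and with S100b -0.26 (4 of 11; -0.03).

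Calls in the other nerve lists are given beside the share of all probe sets that passed in either direction. That share was 0.455% by genotype in QF and 0.407% in TA. Between muscles it was 0.736% in Control mice and 0.3% in Dysf_null mice. Of 11 measured axon and nerve ending genes, 1 rose by genotype in QF: Thy1, a surface glycoprotein of neurons, fibroblasts and T cells (1.19 ± 0.23, limma adjusted p = 0.0394). Another, the tubulin gene Tubb3, was higher in TA than QF of Control mice (1.02 ± 0.17, 0.0105), on a probe set of a class that can read related genes. Stmn2, a growth cone protein, gave -0.19 ± 0.25 in QF and 0.16 ± 0.25 in TA. Of the 18 axon and nerve ending genes on the array, 7 were not above the floor on at least 3 arrays, among them Prph, Nefm and Snap25. Of 16 neuromuscular junction and denervation genes, 0 passed by genotype in QF or TA. Between muscles Nes, an intermediate filament gene of synaptic and precursor regions, was higher in TA of Control mice (0.93 ± 0.18, 0.0317), and the stress gene Gadd45a was lower in TA of Dysf_null mice (-0.75 ± 0.14, 0.0487). Of 5 measured melanocyte genes, which mark another SOX10-positive lineage, 0 passed in any comparison, and their mean level overlapped between genotypes in both muscles (5.4 to 5.62 and 5.47 to 5.75 in QF, 5.52 to 5.54 and 5.13 to 5.55 in TA).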

How the data were processed

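Each array came with 1 deposited intensity (linear) for every probe set. These had been brought by the authors to an equal trimmed mean: without the lowest and highest 2% it was 200.1 to 200.2 on all 12 arrays. The software was not given in the sources used here. After removal of 66 control probe sets from 12488, the 12422 others were quantile normalized (array medians differed 1.47-fold), given a floor at their 25th percentile (intensity 23.025), and put on the log2 scale. For the 10331 that exceeded it on 3 arrays or more, limma 3.58.1 (R 4.3.3) was used (4 group means, 12 arrays, 8 residual degrees of freedom, intensity trend), with two-sided tests and Benjamini-Hochberg adjustment over all of them. Names came from the platform annotation (10833 probe sets with 1 symbol, 396 with several, 1193 with none). Markers in lists were taken at the probe set with the highest mean, except where another probe set is mentioned.

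Same-numbered arrays had deviations from group means that correlated at 0.390, 0.711 and 0.660 in QF and 0.182, 0.114 and 0.231 in TA. Between QF and TA of a genotype these correlations ran from -0.14 to 0.12. The numbers come from the labels, which do not say what same-numbered arrays share. Differently numbered arrays were not compared, so pairing within a muscle is an assumption of the replicate block. Correlations of genes used deviations from group means, with exact permutation of arrays within groups (1296 arrangements) in Python 3.11.15. The fit was tested on simulated data for the QF genotype comparison: of 100 probe sets changed by a log2 difference of 1, 28 were called, and of 100 changed by 2, 82 were.

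Named were the member probe sets and the 5 probe sets most like each gene. List members were mainly named from those that passed or had the 3 highest means of a list. Not all of these were named: Dcn, Prkar1a, Chrnb1 and the fat cell markers that fell between muscles are among those left out. Other probe sets of Col3a1 and C1qb that passed by genotype were named as well. The lists of fibroblast, macrophage, fat, nerve and melanocyte genes are reported above. Of the lists not described there, endothelial and mural markers had 0 of 12 past the threshold by genotype in either muscle, satellite cell and muscle markers 0 of 7 in both, and central oligodendrocyte genes 0 of 2 in both. The members and lists were chosen with earlier results of these data known.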

Additional observations from a re-analysis of the deposited data

Results flagged for a closer look

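The search covered the members and the list genes that passed or had the 3 highest means of a list. Genotype or muscle differences pointed opposite ways without overlap in 2 cases, both of them axon and nerve ending genes. Other genes of the lists were not searched, and the share of all probe sets with such a pattern was not computed. Tubb3 was higher in Dysf_null_QF (8.38 to 8.73) than in Control_QF (7.93 to 8.23) and lower in Dysf_null_TA (8.31 to 8.67) than in Control_TA (8.99 to 9.15), with an interaction of -1.11 ± 0.23 that did not pass (limma adjusted p = 0.247). Thy1 was higher in TA than QF of Control mice (7.60 to 7.83 against 6.47 to 7.26) and lower in TA than QF of Dysf_null mice (7.70 to 7.97 against 8.05 to 8.24), with an interaction of -1.05 ± 0.32 (limma adjusted p = 0.955).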

How the results depend on the processing

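Alternatives were the deposited scaling, median centring, log2(value + 16) with no floor, a floor at the 10th percentile, no filter, a filter at 6 arrays, no intensity trend, array weights, a replicate block within each muscle, each muscle alone, and arrays left out. Under these 24 settings the count of member probe sets called was 0 in each comparison, except 1 for the average genotype difference with the replicate block (Pmp22). That block was not run for the comparisons between muscles, because it lies within a muscle. Of 917 refitted member differences, 62 changed sign, called in neither setting. The median r over gene pairs, 0.512, was 0.674 with the deposited scaling, 0.166 with median centring, 0.127 with the replicate block, 0.0304 without both QF arrays numbered 2, 0.627 in QF alone, 0.116 in TA alone and 0.354 with group means kept. It lay between 0.327 and 0.592 with 1 array left out, and was 0.353, 0.327 and 0.396 without Dysf_null_QF 2, Dysf_null_QF 3 and Control_QF 2. The cause was not tested. The number of all probe sets called ran from 0 to 273 in QF (47 as reported), 14 to 192 in TA (42), 27 to 474 for the average (113), 31 to 145 in Control (76), 14 to 52 in Dysf_null (31) and 4 to 32 for the interaction (7). The deposited scaling moved the median of all differences between muscles in Control by -0.10. Signal near the floor limits S100b and the dimmer Sox10 probe set.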
